A study of Arabidopsis thaliana with 6 samples.

Results

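The 10 genes described here, *WRKY33*, *WRKY40*, *ERF104*, *ZAT10*, *ZAT12*, *TCH2*, *TCH3*, *CAF1a*, *SZF1* and *JAZ1*, are early response genes of *Arabidopsis thaliana*, chosen by locus from the 33560 genes of the table. Their levels were compared between root tips of *bron-2*, in which a T-DNA disrupts the transcription factor gene *BRONTOSAURUS* (*BRON*), and root tips of the Columbia-0 wild type. Both groups were untreated 5-day-old seedlings grown on mesh on 1x MS plates with sucrose under 16 h light and 8 h dark, and about 2 mm of root tip was taken. Each genotype had 3 biological replicates of material pooled over several plates, *bron-2* was represented by 1 insertion line, and no touch, stress or hormone treatment was applied in this experiment. Values are FPKM, fragments scaled to transcript length and to the mapped fragments of the library, and the 3 values of a genotype are given in the order of replicates 1, 2 and 3.

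Genes of this kind are transcribed within minutes of touch, wounding, cold, salt or a microbial elicitor, and their mRNAs are short-lived. A rise of cytosolic calcium, read by calmodulin-like proteins and by calmodulin-binding transcription activators (CAMTA), and MAP kinase cascades are the known triggers. Many of the products are transcription factors or repressors, which pass the signal on or end it, and others shorten mRNA tails or repress jasmonate responses. Handling of a seedling can itself induce such genes, so replicate values are given beside the genotype difference of each of the 10 genes.

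*BRON* (AT1G75710), the disrupted gene, was at 6.38% of its wild-type level in *bron-2*, with a log2 difference of -3.12 (adjusted p = 7.9e-05, limma). The summed FPKM was between 791546 and 812383 in the *bron-2* libraries and between 793710 and 810099 in the wild-type libraries. Relative depth was estimated from the commonest ratio between pairs of libraries over genes averaging under 0.2 FPKM. The estimate was 1.20 to 1.25 in *bron-2* and 0.968 to 1.10 in the wild type, with wild type replicate 1 set to 1. Of 9 root tip markers, 6 averaged 1 FPKM or more. *WER* was lower in the mutant (log2 difference -0.50, unadjusted p = 0.00902, limma), where 9.79% of all tested genes had an unadjusted p under 0.05. *PLT2* was at 0.672 to 0.807 FPKM in *bron-2* and 1.04 to 1.63 FPKM in the wild type. It reached 1 FPKM on average only through the wild type, so its test is not read. *SHR* and *SCR* had log2 differences of 0.09 and 0.06, and *SMB* and *GL2* of -0.20 and -0.09, none at an unadjusted limma p under 0.05. The markers summed to between 72.4 and 80.3 FPKM in *bron-2* and between 80.0 and 89.9 FPKM in the wild type, a sum to which *SCR* and *GL2* added most. *PLT1* was at 0.506 to 0.766 FPKM in *bron-2* and 0.780 to 0.930 FPKM in the wild type. *FEZ* was at 0.0973 to 0.913 FPKM in *bron-2* and 0.442 to 1.24 FPKM in the wild type. The quiescent center gene *WOX5* was listed at 0, 0.367 and 0.114 FPKM in the *bron-2* libraries, and at 0.300, 0.460 and 0.522 FPKM in the wild-type libraries. *CASP1*, a gene of the differentiating endodermis, was at 1011 to 1378 FPKM in *bron-2* and at 704 to 1191 FPKM in the wild type (log2 difference 0.32, unadjusted p = 0.145, limma), and the root hair genes *COBL9* and *EXPA7* had log2 differences of -0.01 and 0.05. Of 3 green shoot markers, *RBCS1A*, a subunit of Rubisco, was lower in *bron-2*, at 53.8% of its wild-type level and with overlapping libraries (log2 difference -0.64, unadjusted p = 0.0324, limma). The antenna gene *LHCB1.3* was at 20.4 to 26.5 FPKM in *bron-2* and 19.3 to 29.6 FPKM in the wild type, and the shoot meristem gene *STM* was listed at 0 in all 6 libraries. The part of these markers in the results below was not tested, and fewer cells of a type and less RNA per cell cannot be told apart.

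Of the 10 genes, 9 averaged 1 FPKM or more across libraries and were tested with the 17107 genes of that level. *WRKY40* and *SZF1* were lower in the mutant at an unadjusted limma p under 0.05, the threshold named in the study's methods, and no member was higher at that threshold. These 2 of 9 genes compare with 9.79% of all tested genes, of which 5.76% were lower and 4.03% were higher in *bron-2*. At an adjusted p under 0.05 none of the 9 genes passed in limma, where 0.0818% of all tested genes did, and the smallest adjusted p of the 9 was 0.282. The log2 difference, *bron-2* minus wild type on log2(FPKM + 1), was below 0 for 7 of the 9 genes (50.3% of all tested genes), with a median of -0.51 beside a median of -0.000995 over all tested genes. This scale understates the change of low genes. In *WRKY40*, *ZAT10* and *SZF1* every *bron-2* library lay below every wild-type library, and in the other 7 genes the groups overlapped. Groups without overlap made up 15.7% of the tested genes as a whole, and 8.67% when only those lower in *bron-2* were counted.

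**Figure D1:**
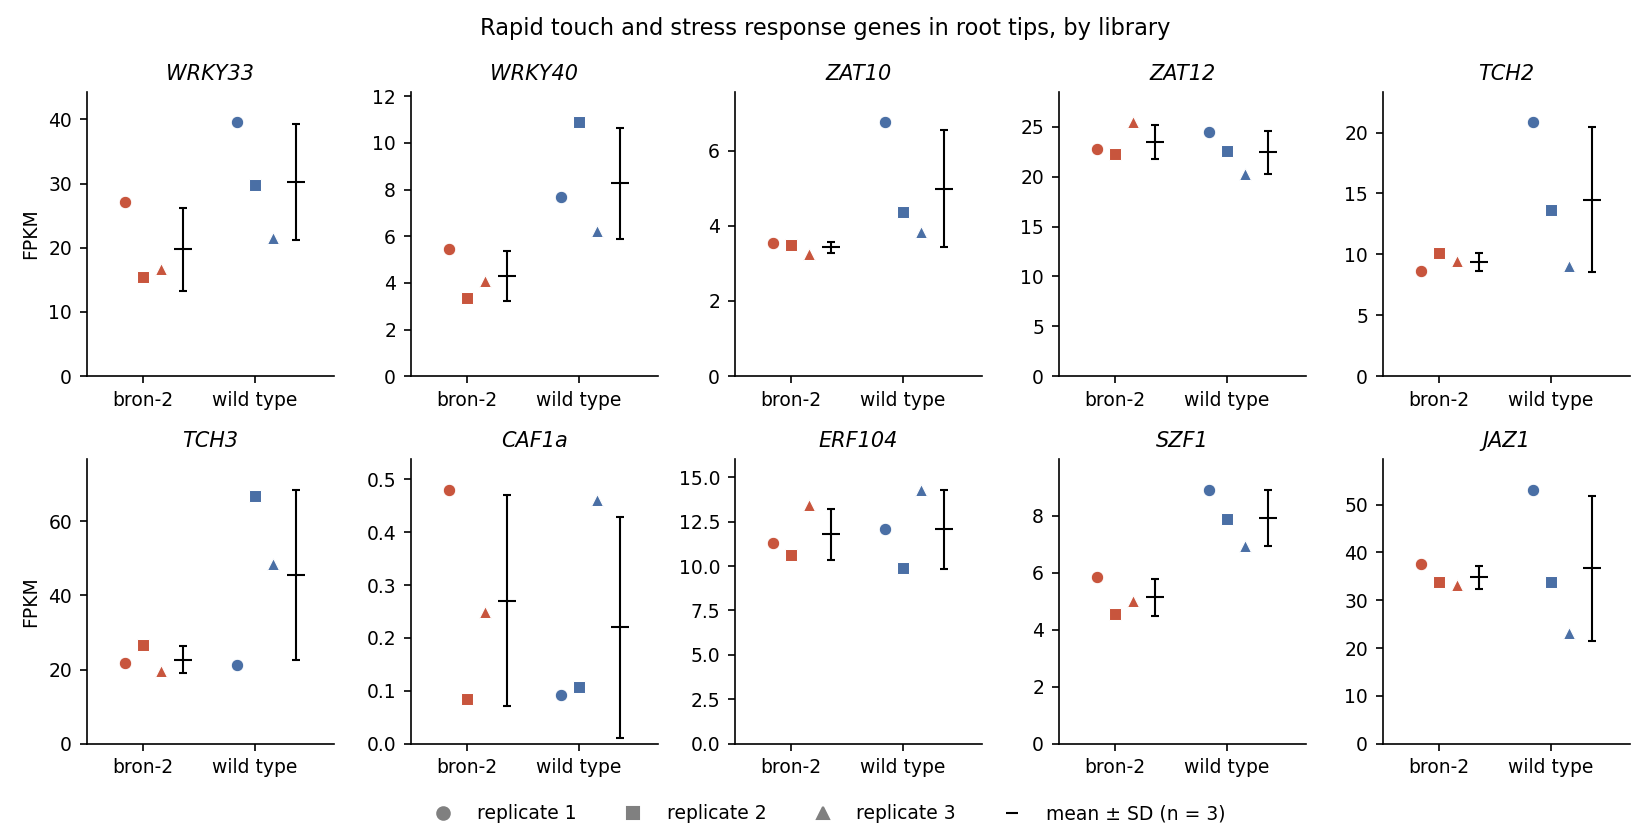
FPKM (vertical axes, each starting at 0) of the 10 genes in the 3 *bron-2* and 3 wild-type libraries, with the mean and SD of each genotype beside the points. The *bron-2* libraries of *TCH3* sit between 19.7 and 26.6 FPKM, beside 1 wild-type library at 21.2 FPKM and the other wild-type libraries at 48.5 and 66.8 FPKM.

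The sequences upstream of 3 members are given because *SZF1* and *WRKY40* passed the unadjusted threshold, while *TCH2* holds a letter run tied in the literature to rapid stress responses. Each is the 250 bases before the annotated gene start, in the direction of transcription, read from the RefSeq TAIR10.1 genome. Capitals mark matches of the full W-box (TTGACC or TTGACT, a site bound by WRKY factors) and matches of CGCGTT, a core of CAMTA sites, on either strand. Shorter parts of the W-box were not searched. The *SZF1* window is chr3:20775970-20776219 on the plus strand, and that of *WRKY40* is chr1:30383311-30383560 on the plus strand. The *TCH2* window is chr5:14999620-14999869 on the minus strand.
SZF1: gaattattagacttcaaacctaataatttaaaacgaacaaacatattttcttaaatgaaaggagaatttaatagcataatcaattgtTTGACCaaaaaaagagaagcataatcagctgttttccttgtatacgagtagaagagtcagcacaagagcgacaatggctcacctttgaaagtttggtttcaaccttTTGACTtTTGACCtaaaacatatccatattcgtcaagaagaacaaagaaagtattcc
WRKY40: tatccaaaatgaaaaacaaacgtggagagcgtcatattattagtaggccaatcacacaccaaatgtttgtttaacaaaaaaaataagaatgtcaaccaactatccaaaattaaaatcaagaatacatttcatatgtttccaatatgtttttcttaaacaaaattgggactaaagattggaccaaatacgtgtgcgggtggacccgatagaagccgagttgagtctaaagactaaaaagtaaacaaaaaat
TCH2: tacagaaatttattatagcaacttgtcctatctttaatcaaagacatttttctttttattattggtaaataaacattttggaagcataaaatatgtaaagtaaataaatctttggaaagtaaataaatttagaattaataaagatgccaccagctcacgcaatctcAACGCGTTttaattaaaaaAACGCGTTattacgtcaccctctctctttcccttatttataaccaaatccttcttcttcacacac

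*SZF1* held 3 W-box matches, at 163 to 158, 57 to 52 and 50 to 45 bases before its start, and *WRKY40* held none. *TCH2* held 4 matches of CGCGTT, which fall into a pair of 8-base palindromes in which the matches of both strands overlap, at 84 to 77 and 65 to 58 bases before the start. Of the 9 members whose windows were searched, a W-box match was present upstream of 2 (*WRKY33* and *SZF1*), and upstream of 28.4% of 27443 protein-coding genes. CGCGTT was present upstream of 1 of these 9 genes, *TCH2*, and of 2.59% of all. GCCGCC, the core bound by ERF factors, was present upstream of *WRKY33* and *ZAT10* and of 1.87% of all. These matches are letters in a window and were not tested as binding sites.

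*WRKY40* (AT1G80840, chromosome 1 from 30383561 to 30385499, plus strand, 4 exons) encodes a WRKY repressor that acts with WRKY18 and WRKY60 in immunity and abscisic acid signaling. It was at 5.44, 3.35 and 4.07 FPKM in the *bron-2* libraries, and at 7.70, 10.9 and 6.23 FPKM in the wild-type libraries. Every *bron-2* value was lower, although the highest *bron-2* library and the lowest wild-type library were close. The means were 4.29 ± 1.06 FPKM in *bron-2* and 8.27 ± 2.38 FPKM in the wild type (SD, n = 3 each), and *bron-2* was at 51.8% of the wild type. The log2 difference was -0.80 (standard error 0.21, unadjusted p = 0.00599, adjusted p = 0.319, limma), which is 2.45 times the pooled replicate SD of 0.33. In the 6 fits that each omitted 1 library the log2 difference stayed between -0.96 and -0.60, and the unadjusted limma p was between 0.00254 and 0.0252. *WRKY40* shares 51 bases with AT1G80850 on the other strand, whose log2 difference was -0.02 (unadjusted p = 0.884, limma).

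*SZF1* (AT3G55980, chromosome 3 from 20776220 to 20778952, plus strand, 2 exons) encodes a CCCH zinc-finger protein that takes part in the salt stress response. Its values were 5.85, 4.55 and 5.02 FPKM in the *bron-2* libraries, and 8.91, 7.91 and 6.95 FPKM in the wild-type libraries. The genotypes were separated by more than the spread within either of them, with means of 5.14 ± 0.658 FPKM in *bron-2* and 7.92 ± 0.982 FPKM in the wild type (SD, n = 3 each). The log2 difference was -0.54 (standard error 0.13, unadjusted p = 0.00334, adjusted p = 0.282, limma), or 3.45 times the pooled replicate SD of 0.16, the largest such ratio among the 9 genes. *SZF1* passed the unadjusted threshold in each of the 6 fits that left out 1 library, with log2 differences between -0.62 and -0.46. For *WRKY40*, *SZF1* and *ZAT10* alike, the exact permutation p over libraries was 0.1 (two-sided), the smallest that 3 libraries against 3 allow.

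*WRKY33* (AT2G38470, chromosome 2 from 16108235 to 16110766, plus strand, 5 exons), a target of the MAP kinases MPK3 and MPK6, activates camalexin synthesis. It was at 27.1, 15.4 and 16.7 FPKM in the *bron-2* libraries, and at 39.5, 29.8 and 21.5 FPKM in the wild-type libraries. Replicate 1 was the highest library in each genotype, and *bron-2* replicate 1 lay above wild type replicate 3. The log2 difference of -0.60 (95% interval -1.20 to 0.01, unadjusted p = 0.0523, adjusted p = 0.519, limma) was 1.41 times the pooled replicate SD of 0.42. It passed the unadjusted limma threshold without wild type replicate 3 (log2 difference -0.81, unadjusted p = 0.0127) and without *bron-2* replicate 1 (-0.84, unadjusted p = 0.00951). It did not pass in the other 4 fits that omitted a library, and without wild type replicate 1 the log2 difference was -0.39 (unadjusted p = 0.16, limma). The gene shares 272 bases with AT2G08965, which was not analysed here, and 26 bases with AT2G38480, both on the other strand, and the strand setting of the authors' counting is not given in the sources used here.

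*ERF104* (AT5G61600, chromosome 5 from 24766344 to 24767732, minus strand, 1 exon), an ethylene response factor held by MPK6 until flagellin is perceived, showed almost no genotype difference. It was at 11.3, 10.6 and 13.4 FPKM in the *bron-2* libraries, and at 12.1, 9.86 and 14.3 FPKM in the wild-type libraries. Within each genotype replicate 3 was the highest library and replicate 2 the lowest. The log2 difference was -0.02 (95% interval -0.37 to 0.32, unadjusted p = 0.872, limma).

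*ZAT10* (AT1G27730, chromosome 1 from 9648021 to 9649323, minus strand, 1 exon) and *ZAT12* (AT5G59820, chromosome 5 from 24102814 to 24103794, plus strand, 1 exon) encode C2H2 zinc-finger transcriptional repressors. They act in salt, drought, cold and oxidative stress responses. *ZAT10* was at 3.54, 3.49 and 3.26 FPKM in the *bron-2* libraries, and at 6.75, 4.37 and 3.84 FPKM in the wild-type libraries. All *bron-2* libraries lay just below the lowest wild-type library, and wild type replicate 1 stood far above the other wild-type libraries. The *ZAT10* log2 difference was -0.40 (95% interval -0.82 to 0.01, unadjusted p = 0.0555, adjusted p = 0.524, limma), without wild type replicate 3 it was -0.54 (unadjusted p = 0.0182), and without wild type replicate 1 it was -0.20 (unadjusted p = 0.158). *ZAT12* was at 22.8, 22.3 and 25.4 FPKM in the *bron-2* libraries, and at 24.5, 22.5 and 20.3 FPKM in the wild-type libraries. The *ZAT12* groups overlapped, with a log2 difference of 0.07 (95% interval -0.17 to 0.30, unadjusted p = 0.526, limma) and a pooled replicate SD of 0.12, the smallest of the 9 genes.

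*TCH3* and *TCH2* are touch genes that encode calmodulin-like calcium sensors with EF-hand motifs. *TCH3* (AT2G41100, also CML12, chromosome 2 from 17137037 to 17139700, plus strand) was at 21.8, 26.6 and 19.7 FPKM in the *bron-2* libraries, and at 21.2, 66.8 and 48.5 FPKM in the wild-type libraries. Wild type replicate 1 lay within the *bron-2* range, and the other wild-type libraries were well above it. Mean *TCH3* was 49.9% of the wild type, at 22.7 ± 3.56 FPKM in *bron-2* and 45.5 ± 23.0 FPKM in the wild type (SD, n = 3 each). The log2 difference of -0.84, the largest in size among the 9 genes, was 1.38 times the pooled replicate SD of 0.61 (95% interval -1.68 to 0.01, unadjusted p = 0.0514, adjusted p = 0.516, limma). Without wild type replicate 1 it was -1.30 (unadjusted p = 0.00012, adjusted p = 0.0644, limma), and without wild type replicate 2 it was -0.49 (unadjusted p = 0.176, limma). *TCH3* overlaps AT2G41105 and AT2G09220 on the other strand in the annotation, and reads of these genes could not be told apart from its own.

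*TCH2* (AT5G37770, also CML24, chromosome 5 from 14997514 to 14999619, minus strand) was at 8.63, 10.1 and 9.42 FPKM in the *bron-2* libraries, and at 20.8, 13.6 and 9.02 FPKM in the wild-type libraries. The *bron-2* libraries were close together, while the highest wild-type library was 2.31 times the lowest. Here wild type replicate 3 fell within the *bron-2* range, so the library that resembled *bron-2* was not the same as for *TCH3*. The *TCH2* log2 difference was -0.51 (95% interval -1.09 to 0.08, unadjusted p = 0.0796, adjusted p = 0.560, limma), without wild type replicate 3 it was -0.79 (unadjusted p = 0.00317), and without wild type replicate 1 it was -0.22 (unadjusted p = 0.235). The gene shares 723 bases with AT5G37760 on the other strand, which was listed at 0 in 5 of the 6 libraries.

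*JAZ1* (AT1G19180, chromosome 1 from 6621777 to 6623668, plus strand) encodes a repressor that is degraded through the receptor COI1 when jasmonate is present, and its transcription is in turn induced by jasmonate. It was at 37.6, 33.7 and 33.2 FPKM in the *bron-2* libraries, and at 53.1, 33.8 and 23.1 FPKM in the wild-type libraries. The wild-type libraries lay on both sides of the *bron-2* range, and the means were 34.8 ± 2.41 FPKM in *bron-2* and 36.7 ± 15.2 FPKM in the wild type (SD, n = 3 each). The log2 difference was 0.005 with a 95% interval of -0.59 to 0.60 (unadjusted p = 0.986, limma), so a change in either direction of that size was not detectable with these libraries.

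*CAF1a* (AT3G44260, chromosome 3 from 15952008 to 15953346, minus strand, 1 exon) encodes a deadenylase that shortens the poly(A) tails of mRNAs. It was near the lower end of the values in all libraries, at 0.480, 0.0841 and 0.248 FPKM in the *bron-2* libraries, and at 0.0912, 0.106 and 0.462 FPKM in the wild-type libraries. In each genotype the highest library was over 5 times the lowest, and the genotypes overlapped (p = 0.8 in a two-sided exact permutation test). *CAF1a* was left out of the tested genes by its level, and in the limma fit without that filter its log2 difference was 0.06 (unadjusted p = 0.710).

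**Figure D2:**
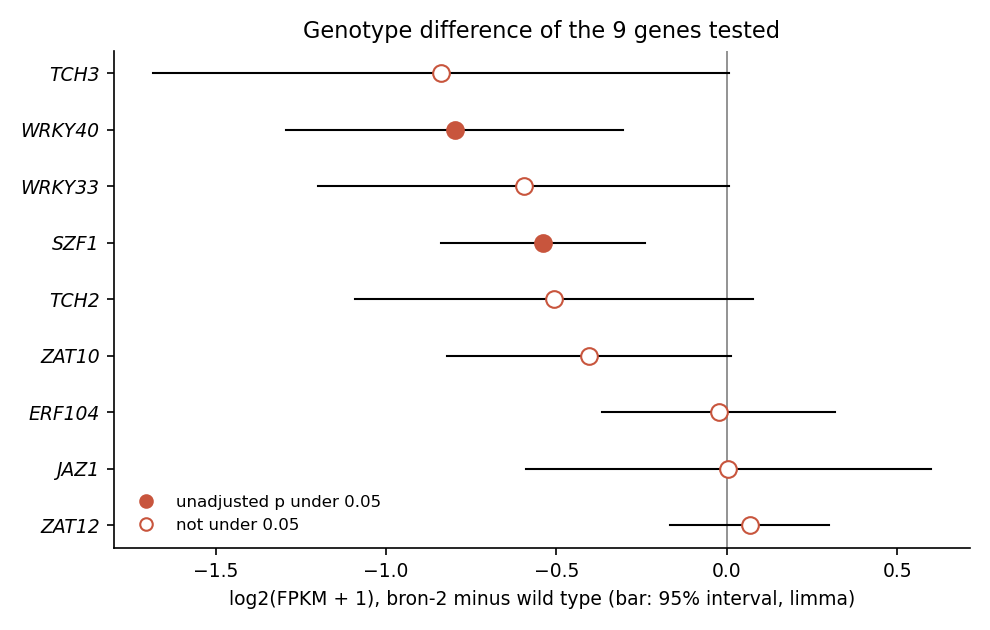
Log2 difference (horizontal axis, *bron-2* minus wild type on log2(FPKM + 1)) of the 9 tested genes, with 95% intervals from limma and filled points where the unadjusted p was under 0.05. The intervals of *WRKY40* (-1.29 to -0.30) and *SZF1* (-0.84 to -0.24) lie below 0, and those of the other 7 genes include 0.

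The replicates of one genotype differed widely for several of these genes. The pooled replicate SD of log2(FPKM + 1) had a median of 0.33 over the 9 genes, compared with 0.15 over all tested genes and 0.09 over 6 reference genes (*PP2AA3*, *UBC21*, *GAPC2*, *ACT2*, *ACT7* and AT4G34270). For 5 genes (*TCH3*, *WRKY33*, *JAZ1*, *TCH2* and *WRKY40*) it lay above the 90th percentile of all tested genes, *TCH3* highest at 98.4. The SD of *TCH3* was 4.79 times the SD that the limma trend gave for its level, and the ratio was 3.34 for *JAZ1* and 3.25 for *WRKY33*. *SZF1* was at the 52.2 percentile mark and *ZAT12* at 32.6, so wide spread was not shared by the whole group.

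The spread was larger in the wild type than in *bron-2* for all 9 tested genes, where this held for 54.2% of all tested genes. The 9 genes come from the same 6 libraries and are not independent, and for *WRKY33* and *SZF1* the SDs of the genotypes were almost equal. After scaling by the median log ratio or quantile normalization, 7 of the 9 genes had the larger SD in the wild type, and with 1 library left out the count was 6 to 9. The wild-type SD was over 3 times that of *bron-2* for *ZAT10* (0.05 in *bron-2* and 0.36 in the wild type), *JAZ1* (0.10 and 0.58), *TCH2* (0.10 and 0.56) and *TCH3* (0.21 and 0.83). That is 4 of 9 genes, beside 12.8% of all tested genes, and none had the reverse, beside 8.87%. The ratio of 3 was chosen after the values were seen, and an SD from 3 libraries is itself imprecise. The *bron-2* libraries were also the deeper ones by the estimate of relative depth, and the part of depth in this difference was not tested.

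**Figure D3:**
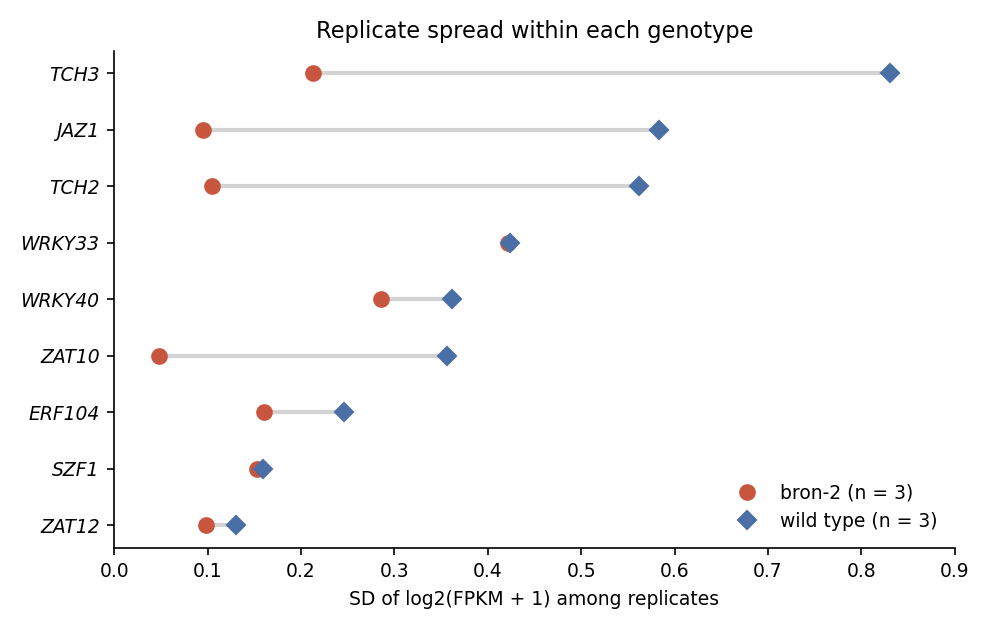
SD of log2(FPKM + 1) among the 3 replicates (horizontal axis, starting at 0) of *bron-2* (circles) and the wild type (diamonds) for the 9 tested genes. *ZAT10*, *TCH2*, *JAZ1* and *TCH3* have wild-type SDs from 0.36 to 0.83 and *bron-2* SDs from 0.05 to 0.21.

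No single library was high for all genes. Wild type replicate 1 was the highest of the 6 libraries for 5 of the 10 genes (*WRKY33*, *ZAT10*, *TCH2*, *SZF1* and *JAZ1*), and wild type replicate 2 for *WRKY40* and *TCH3*. Within the wild type, replicate 3 was the lowest library for 7 of the 10 genes. Within *bron-2*, replicate 1 was the highest library for 6 genes and replicate 2 the lowest for 6. How often each library held these places over all tested genes was not counted. Without wild type replicate 3, *WRKY33*, *ZAT10* and *TCH2* passed the unadjusted limma threshold besides *WRKY40* and *SZF1*, 5 of 9 genes in all. Calls also rose over all 17107 tested genes in that fit, to 2289 from 1674 in the full set. Without wild type replicate 1 the third was *TCH3* (1652 calls over all genes), and without *bron-2* replicate 1 it was *WRKY33* (1528 calls).

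The centred profile of the 10 genes, averaged on log2(FPKM + 1), was -0.07, -0.26 and -0.21 in *bron-2* replicates 1, 2 and 3, and 0.29, 0.23 and 0.01 in wild type replicates 1, 2 and 3. Wild type replicate 3 therefore lay near the middle, between the other wild-type libraries and *bron-2*. Among the other tested genes, the profile most like it over the 6 libraries was that of AT1G69070, annotated as a nucleolar-like protein, with a root mean square difference of 0.03 on the log2 scale. AT1G69070 was at 8.16, 7.02 and 7.25 FPKM in the *bron-2* libraries, and at 11.1, 10.7 and 8.52 FPKM in the wild-type libraries. The next were AT1G13160, AT4G02400, AT1G30240, *PPAN*, *WRKY65*, *RABA4C*, AT4G02720, *IBM1* and *GLU1*, with differences from 0.04 to 0.05, where the median over 17098 genes was 0.25. None of these 10 genes belongs to the related lists below. Of the members themselves *SZF1* was nearest to the mean profile, at 0.10, and *TCH3* farthest, at 0.60. In all, 7 of the 10 members (*WRKY33*, *WRKY40*, *TCH2*, *TCH3*, *CAF1a*, *ERF104* and *JAZ1*) lay farther from the mean profile than the median tested gene, so the mean describes few of them closely in value. This difference counts the size of the deviations as well as their direction. It therefore does not show that the order of the libraries differed between these members and the mean.

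Of 82 further genes of the same pathways, 60 averaged 1 FPKM or more. At the unadjusted threshold 7 of the 60 were lower in *bron-2* and none was higher (11.7%, beside 9.79% of all tested genes). None passed at an adjusted p under 0.05 in limma, and the median log2 difference of the 60 genes was -0.06. The count without 1 library was 12 when wild type replicate 3 was left out, 3 without *bron-2* replicate 2, and 4 without *bron-2* replicate 3 or wild type replicate 2. Calls over all 17107 tested genes moved too, from 1674 in the full set to 2289 without wild type replicate 3. They were 1053 without *bron-2* replicate 2, 1574 without *bron-2* replicate 3 and 1074 without wild type replicate 2.

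The WRKY list had 8 tested genes, of which 7 had a log2 difference below 0 and *WRKY22* passed. *WRKY22* (AT4G01250), a WRKY factor induced by flagellin downstream of MAP kinases, was at 5.17, 3.82 and 2.59 FPKM in the *bron-2* libraries, and at 8.44, 9.94 and 9.21 FPKM in the wild-type libraries. The groups were well apart, and the log2 difference of -1.10 (unadjusted p = 0.000499, adjusted p = 0.186, limma) was the largest in size among the 60 genes. *WRKY18*, a partner of *WRKY40*, was at 3.45, 1.38 and 3.97 FPKM in *bron-2* and at 4.31, 6.22 and 3.48 FPKM in the wild type, with overlapping groups (unadjusted p = 0.0929, limma).

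In the ERF and DREB list 1 of 6 tested genes passed. *ERF6*, an ethylene response factor that is also a MAP kinase target, was at 15.0, 11.4 and 14.0 FPKM in the *bron-2* libraries, and at 18.5, 23.8 and 17.5 FPKM in the wild-type libraries (log2 difference -0.53, unadjusted p = 0.00729, limma). *ERF105*, a close relative of *ERF104*, was below the level tested, at 0.134 to 0.767 FPKM in *bron-2* and 0 to 2.51 FPKM in the wild type. *CBF1*, *CBF2* and *CBF3*, which encode cold response activators, were below 1 FPKM in all 6 libraries.

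Among the touch and calmodulin-like genes *CML9* passed, 1 of 5 tested. *CML9* was at 55.1, 57.1 and 50.8 FPKM in the *bron-2* libraries, and at 56.1, 76.1 and 75.0 FPKM in the wild-type libraries (log2 difference -0.33, unadjusted p = 0.0337, limma). As for *TCH3*, wild type replicate 1 lay within the *bron-2* range. *CAM2*, the touch gene *TCH1* beside *TCH3* on chromosome 2, was at 342 to 438 FPKM in *bron-2* and 398 to 447 FPKM in the wild type (unadjusted p = 0.231, limma). *CML23*, the nearest relative of *TCH2*, had a log2 difference of -0.19 (unadjusted p = 0.291, limma).

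Of 12 tested jasmonate genes, 6 had a log2 difference below 0 and 6 above it, and *JAZ4* and *OPR3* passed with lower levels in *bron-2*. *JAZ4*, another repressor of the *JAZ1* family, had a log2 difference of -0.39 (unadjusted p = 0.0258, limma). *OPR3*, an enzyme of jasmonate synthesis, was at 17.8 to 18.7 FPKM in *bron-2* and 20.2 to 21.5 FPKM in the wild type, a log2 difference of -0.19 (unadjusted p = 0.0445, limma). *JAZ2*, the closest relative of *JAZ1*, had a log2 difference of 0.23 (unadjusted p = 0.0969, limma).

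Of the other rapid elicitor genes, 2 of 12 tested passed. They were *PUB23* (log2 difference -0.54, unadjusted p = 0.0194, limma) and *PUB22* (-0.24, unadjusted p = 0.0315), which encode related U-box ubiquitin ligases that dampen immune signaling. None of the 7 tested C2H2 repressors, the 8 upstream kinases and CAMTA factors or the 2 paralogs *CAF1b* and *SZF2* passed. *SZF2* was at 25.6 to 30.3 FPKM in *bron-2* and 29.3 to 34.3 FPKM in the wild type (unadjusted p = 0.209, limma), and *CAF1b* had a log2 difference of 0.01. *ZAT6* had a log2 difference of 0.20 (unadjusted p = 0.349, limma). The 6 reference genes had log2 differences between -0.13 and 0.05.

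**Figure D4:**
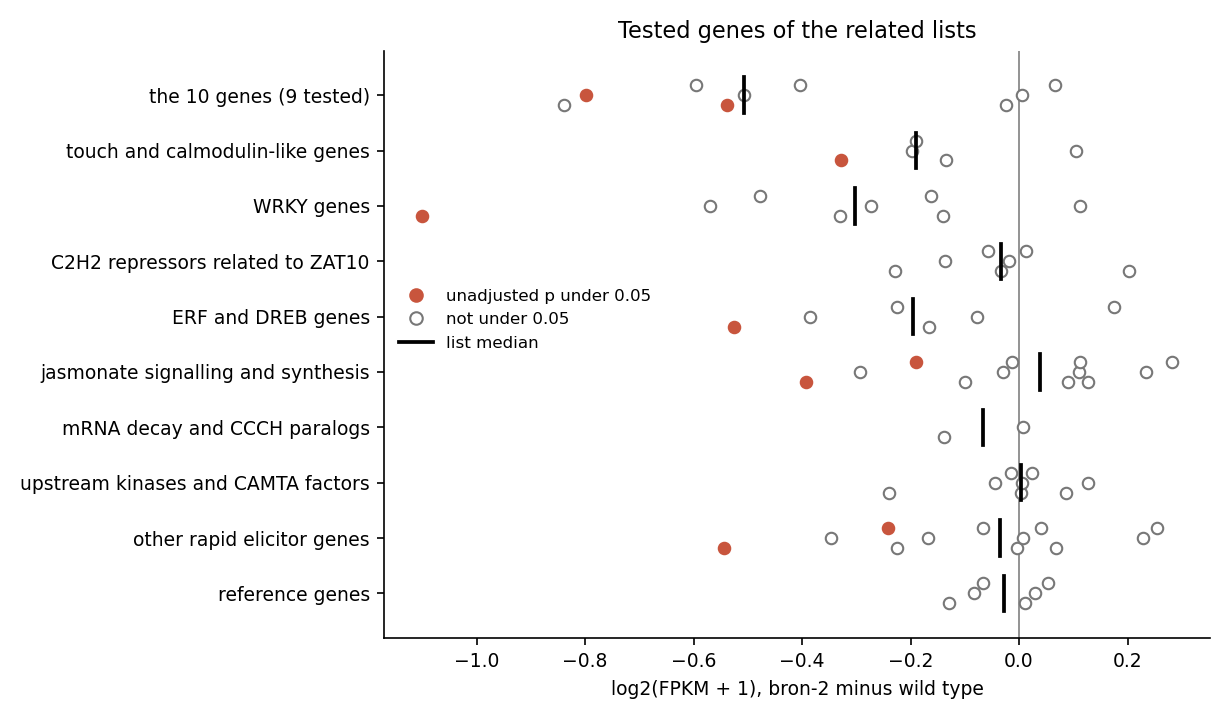
Log2 difference (horizontal axis, *bron-2* minus wild type on log2(FPKM + 1)) of the tested genes of each list, with filled points where the unadjusted limma p was under 0.05 and a bar at the list median. All filled points lie below 0, *WRKY22* farthest at -1.10, and the reference genes stay between -0.13 and 0.05.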

How the data were processed

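RNA-seq was made from root tips of *bron-2* and Columbia-0 seedlings, 3 libraries each, prepared with a NEBNext Ultra II RNA kit. The authors mapped single-end reads to TAIR10 and computed the deposited FPKM values with Cufflinks, whose version and annotation are not given in the sources used here. FPKM values are not counts, so read numbers are unknown. Columns were assigned by name, where Col is the wild type and the other set *bron-2*. The study's methods name PoissonSeq, which needs counts. Here genes averaging 1 FPKM or more were compared by limma 3.58.1 (R 4.3.3) after a log2(FPKM + 1) transform (eBayes with trend, two-sided, Benjamini-Hochberg adjustment over 17107 genes). Exact permutation tests over libraries used 20 splits (Python 3.11.15). The fit was tested on simulated data. Gene positions came from RefSeq TAIR10.1, in which all 113 listed genes were found. The same annotation gave the windows upstream, of which 1 is not reported here. Members, lists and tests were chosen with earlier results of these data known. Genes named were the members, *BRON*, related genes at an unadjusted p under 0.05, the nearest relatives of members, and the 10 genes of most similar profile. Markers, reference genes, genes that overlap members and *CBF1*, *CBF2* and *CBF3* are also named. *MPK6* and *ATL2* are named for their values, and other genes named for their values are said to be so. Alternatives were 0.1 as the pseudocount, dropping the filter, raising it to 5 FPKM, median scaling, quantile normalization, no variance trend, a replicate block and leaving out each library.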

Additional observations from a re-analysis of the deposited data

How the results depend on the processing

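*WRKY40* and *SZF1* had an unadjusted limma p under 0.05 in all 13 alternatives, with adjusted p from 0.164 to 0.754 and from 0.166 to 0.739, and no member reached an adjusted p under 0.05 in any of them. With the replicate number as a block, 5 members passed the unadjusted threshold (*WRKY33*, *ZAT10* and *TCH3* besides these), and 2253 genes overall. The numbers are not known to pair the libraries. Deviations of same-numbered libraries correlated with r of 0.123, -0.0133 and 0.186 across genes. Wild type replicate 2 correlated best with *bron-2* replicate 1 (r = 0.118), while wild type replicates 1 and 3 each correlated best with the same number. The r was -0.219 for *bron-2* replicate 1 with wild type replicate 3, and -0.105 for *bron-2* replicate 3 with wild type replicate 1. With a library left out, members passing ranged from 2 to 5, related genes from 3 to 12, all genes from 1053 (without *bron-2* replicate 2) to 2289 (without wild type replicate 3), and genes at an adjusted p under 0.05 from 8 to 31, where the full set gave 14. At 5 FPKM or more, 7 genes did so among the fewer genes tested. Differences near 0 changed sign when a library was left out, between -0.0012 and 0.13 for *ZAT12*, -0.15 and 0.10 for *ERF104* (0.000394 and 0.04 among them), and -0.28 and 0.30 for *JAZ1* (-0.05 and -0.01 among them), and the cause was not tested. Calls lower in *bron-2* made up 58.8% of calls, 55.7% after median scaling and 52.9% after quantile normalization. *ZAT10* was not tested at 5 FPKM or more, and *CAF1a* only without the filter. Without read numbers the counting error of low genes such as *CAF1a* is unknown.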

Other observations

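The wider spread of wild-type libraries was also counted in the 60 related genes, a count made after the values of the members were seen. In 12 of the 60 genes the wild-type SD of log2(FPKM + 1) was over 3 times the *bron-2* SD, and in 2 (*WRKY22* and *MPK6*) the reverse held, compared with 12.8% and 8.87% of all tested genes. Of the 12 genes, 6 belong to the 12 tested rapid elicitor genes, in all of which the wild-type SD was the larger. Over the 60 genes it was the larger in 40, beside 54.2% of all tested genes. It was the larger in only 6 of 12 jasmonate genes, 3 of 7 C2H2 repressors and 2 of 5 touch and calmodulin-like genes. *ACS6*, an ethylene synthesis enzyme, was at 3.69, 3.76 and 3.91 FPKM in the *bron-2* libraries, and at 6.39, 3.95 and 3.26 FPKM in the wild-type libraries. *JAZ3*, a jasmonate repressor, was at 30.9, 30.9 and 28.8 FPKM in *bron-2* and at 48.8, 37.0 and 28.5 FPKM in the wild type. *MKK5*, a MAP kinase kinase, was at 28.1, 29.5 and 29.8 FPKM in *bron-2* and at 40.7, 36.5 and 27.8 FPKM in the wild type. These 3 genes were named for their values. With *ATL2* they are the 4 of the 12 genes in which wild type replicate 1 was the highest and replicate 3 the lowest of the wild type, as in *WRKY33*, *ZAT10*, *ZAT12*, *TCH2*, *SZF1* and *JAZ1*, and the other 8 had another order. Among these 8, *ATL6*, a ubiquitin ligase also named for its values, was at 16.8, 17.1 and 16.2 FPKM in *bron-2* and 13.3, 17.2 and 18.6 FPKM in the wild type, with wild type replicate 1 the lowest. The share of all tested genes with wild type replicate 1 highest and replicate 3 lowest was not counted.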
